A study of Homo sapiens with 24 samples.

Results

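The MYC and MAX network was followed through 10 genes, taken by their symbols: MYC, MYCL, MYCN, MAX, MXD1, MXD3, MXD4, MXI1, MNT and MGA. All 10 were found by Ensembl identifier among the 60675 genes of the count files. The study depleted the histone H3K4 demethylase KDM5C and the zinc-finger transcription factor YY1 with short hairpin RNAs, singly and together, and sequenced RNA as 24 libraries. Both lines were grown in DMEM with 10% FBS, and both received pLKO.1 lentivirus and puromycin selection, the controls included. ACHN is a renal carcinoma line, labelled ccRCC (clear cell renal cell carcinoma), and HK-2 is an immortalised proximal tubule line. In each line there were 4 groups of 3 libraries: a control hairpin (shNC), a KDM5C hairpin (shKDM5C), a YY1 hairpin (shYY1) and both hairpins (Dsh). The double knockdown was made by infecting YY1-depleted cells with a GFP-tagged KDM5C hairpin and selecting for puromycin resistance and fluorescence. Whether the other groups also received a second virus is not given in the sources used here. The labels do not say which hairpin of each gene was sequenced, nor that replicates were separate cultures, so p-values measure the spread between these libraries, which may be technical.

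MYC, MYCL and MYCN are transcription factors that bind DNA only as heterodimers with MAX, and raise the output of genes for ribosome biogenesis, nucleotide synthesis and growth. MXD1, MXD3, MXD4, MXI1 and MNT compete for MAX, bind the same E-box sequence and recruit the SIN3 and histone deacetylase corepressors, so they oppose MYC. MGA is a very large MAX partner that also carries a T-box DNA-binding domain and belongs to the Polycomb complex PRC1.6, which silences germline genes in somatic cells. In renal epithelium MYC is induced with proliferation and injury, and it is a well-known driver in renal tumours.

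Promoter sequences from RefSeq (GRCh38.p14) were available for 9 members. MYC had no window, so its promoter was not searched. The 14 windows ran from 250 bases before each transcription start to 50 bases after it. They were searched on both strands for the E-box CACGTG, which reads the same on each strand and is the site of MAX dimers, and for the YY1 motif AANATGGC, since YY1 was one of the factors depleted. The 2 motifs share no fixed overlap. The E-box was found in 2 of the 14 windows, those of MXD4 and MNT, and in 7.26% of 35116 promoter windows of equal length. The YY1 motif was found in 1 of the 14, the window of MNT, and in 6.58% of all windows. The 3 stretches below are shown because they hold every match in the 14 windows. Each is 30 bases, 5′ to 3′ on the minus strand of the genome, with the motif in capitals. The first is chr4:2262330-2262359, with the E-box beginning at base −238 from the start. The second is chr17:2401236-2401265, with the E-box beginning at base −193. The third is chr17:2401045-2401074, where the YY1 motif, read here as its reverse complement, begins at base −3 and spans the start.
MXD4, E-box: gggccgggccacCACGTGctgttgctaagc
MNT, E-box: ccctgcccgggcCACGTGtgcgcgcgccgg
MNT, YY1 motif: ggtgcctcctcGCCATCTTgttgcaaagcc

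Library totals ran from 15926561 to 24272298 assigned read pairs, and levels are given as CPM, counts scaled to a common library total. Replicates lay close together, with a median absolute log2 difference between 0.0601 and 0.105 in 22 replicate pairs. The exception was replicate 1 of HK-2 shKDM5C, which differed from its replicates 2 and 3 by 0.503 and 0.488. Counts called by edgeR in the main fits that used it, and the fold changes printed from those fits, are given with and without it. Epithelial kidney markers varied between the controls. PAX8 was at 541 CPM in ACHN and 254 in HK-2. PAX2 was at 27.95 CPM in ACHN and 9.7 in HK-2, and CDH1 at 47.7 in ACHN but only 1.33 in HK-2. The clear cell markers CA9 and NDUFA4L2 were at 0.124 and 1.42 CPM in ACHN, low levels for cells labelled ccRCC. Of 6 proximal tubule genes, LRP2, CUBN, AQP1, SLC34A1 and ANPEP averaged below 1 CPM in every group, and GGT1 stood at 70.3 CPM in ACHN shNC and 202 in HK-2 shNC. Of the markers of other cell types, the leukocyte genes PTPRC, CD3E and CD68 and the endothelial gene CDH5 averaged below 1 CPM in every group, and endothelial PECAM1 reached 1.05 CPM, in HK-2 Dsh. The mesenchymal genes COL1A1 and LUM had higher levels, given here as group means with no test. COL1A1 averaged 581 CPM in ACHN shNC and 49.3, 158 and 134 in ACHN shKDM5C, shYY1 and Dsh, and from 20.3 to 31.0 CPM in the HK-2 groups. LUM was at 0 in ACHN and averaged 10.5, 13.8, 31.5 and 60.9 CPM in HK-2 shNC, shKDM5C, shYY1 and Dsh. Their part in the members' changes was not tested.

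The targeted genes fell in every group meant to lose them. KDM5C fell in ACHN by 0.73 (shKDM5C) and 0.80 (Dsh) on the log2 scale, and in HK-2 by 1.74 and 1.49. YY1 fell in ACHN by 0.88 (shYY1) and 0.51 (Dsh), and in HK-2 by 1.70 and 1.49. YY1 was less depleted in the double knockdown than in shYY1, by a log2 difference of 0.35 ± 0.06 (SE) in ACHN and 0.22 ± 0.06 in HK-2. KDM5C rose in shYY1 of both lines, by 0.34 in ACHN and 0.35 in HK-2. In HK-2 shKDM5C, replicate 1 held KDM5C at 35.8 CPM against 67.9 and 67.0 in replicates 2 and 3, and without it the fall was 1.51.

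MYC was the most abundant member per length of transcript in the controls of both lines. On the scale of CPM per kilobase of exon, MYC stood at 34.0 ± 0.42 (SD, n = 3) in ACHN shNC and at 65.1 ± 0.70 in HK-2 shNC. In ACHN it was followed by MAX at 11.03 ± 0.30, and then by MXD4 at 6.93 ± 0.34 and MXI1 at 6.88 ± 0.49, which did not differ beyond their spread. MNT at 4.10 ± 0.09 and MGA at 4.01 ± 0.14 lay within their spread of each other. MXD3 at 1.66 ± 0.03, MXD1 at 1.38 ± 0.02 and MYCL at 1.16 ± 0.22 were the lowest of the members expressed in ACHN. In HK-2 the order after MYC was MXD4 at 15.9 ± 0.54, MGA at 9.57 ± 0.25, MXI1 at 6.70 ± 0.60 and MAX at 6.31 ± 0.29, with the levels of the last 2 overlapping. MXD3 at 3.73 ± 0.12 and MNT at 3.49 ± 0.13 followed, then MXD1 at 1.597 ± 0.08 and MYCL at 1.28 ± 0.21. The plot of levels by library shows these values without the length scaling.

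**Figure D1:**
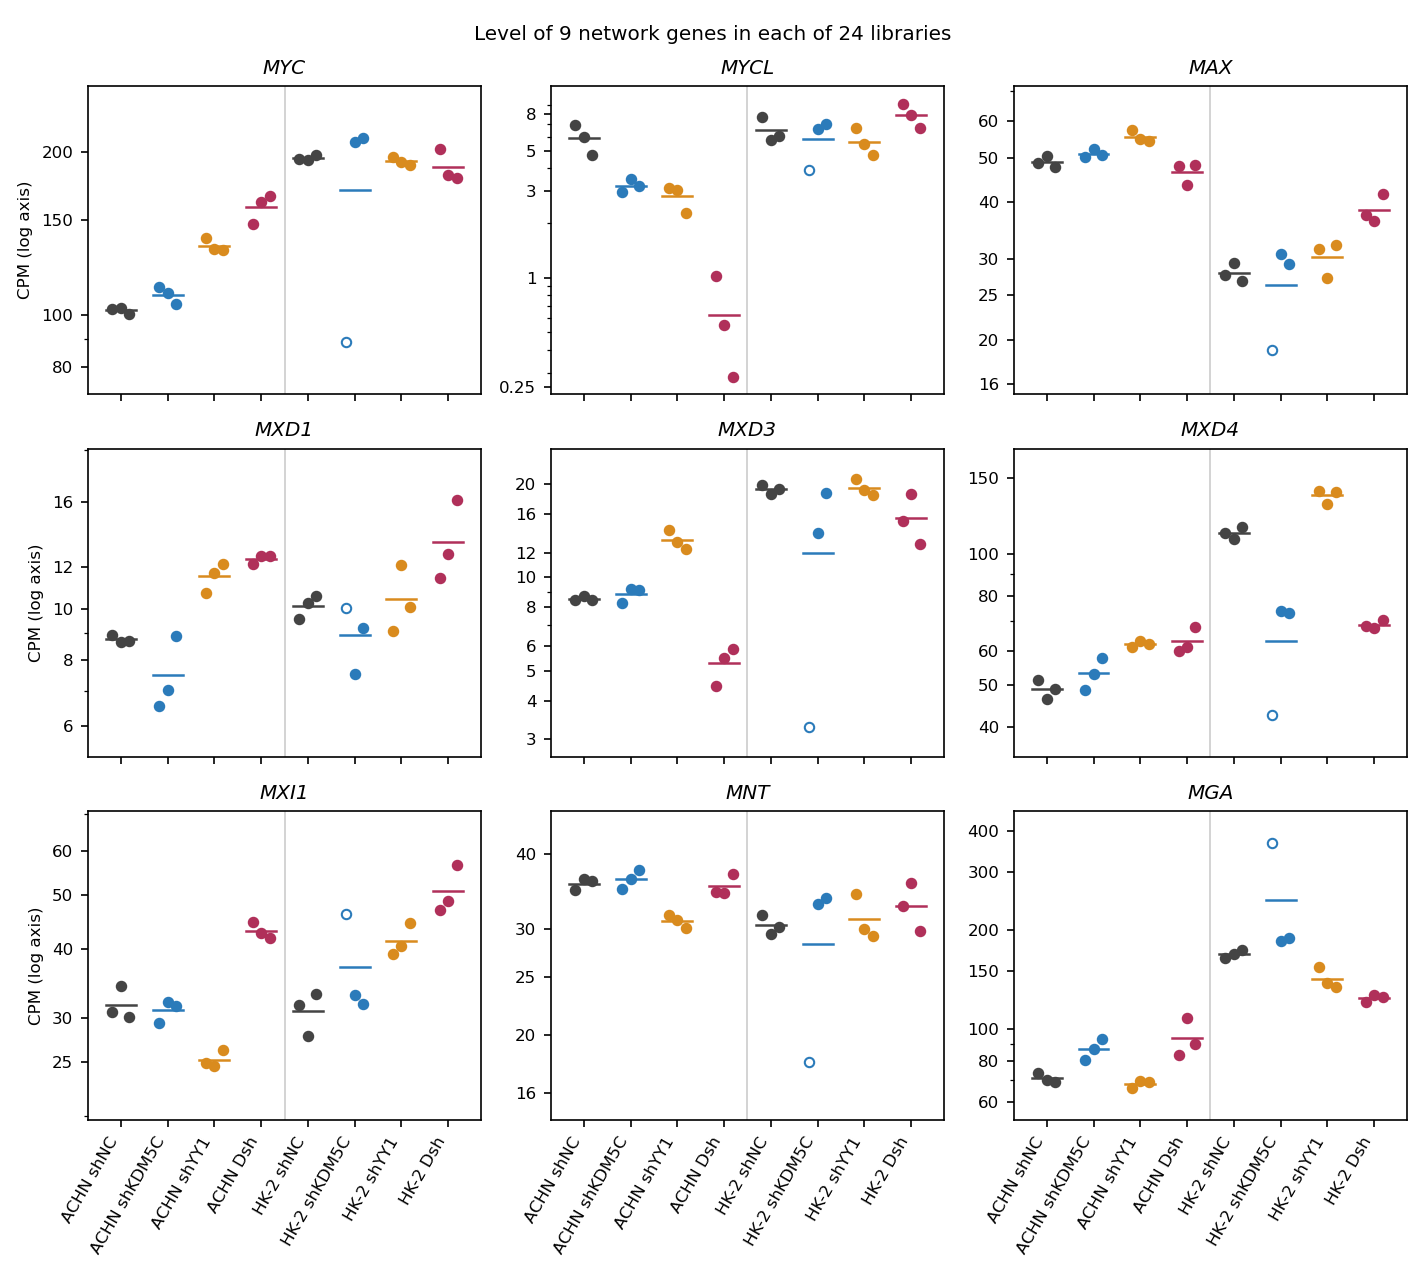
Level of 9 members in each of the 24 libraries, in CPM on a log axis. Points are libraries, bars are means of 3 replicates, and the open circle is HK-2 shKDM5C replicate 1. MYCL in ACHN Dsh lies between 0.284 and 1.03 CPM, under every other library, and MXD3 in ACHN moves up in shYY1 and down in Dsh.

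Between the 2 control groups, 6 of the 9 members tested differed at an adjusted p under 0.05 (edgeR quasi-likelihood test, Benjamini-Hochberg adjusted across the whole table), 2 higher and 4 lower in ACHN, where 76.6% of all genes differed (38.6% higher, 38% lower). MGA, MXD4, MXD3 and MYC were lower in ACHN, with log2 differences of −1.25, −1.18, −1.16 and −0.93. MAX was higher in ACHN by 0.81 ± 0.06 (SE) and MNT by 0.24 ± 0.07. MYCL, MXD1 and MXI1 did not pass the test. MYCN failed the filter on low counts in every comparison, so 9 members were tested throughout.

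Against shNC, the count of members past the same threshold was largest in ACHN shYY1. In that comparison 8 of 9 passed, 5 higher and 3 lower, where 48.7% of all genes tested passed (24.2% higher, 24.5% lower). In ACHN Dsh 7 passed, 5 higher and 2 lower, with a background of 62.6% (30.7% higher, 32% lower). In ACHN shKDM5C 2 passed, MGA higher and MYCL lower, with a background of 56.6% (28.9% higher, 27.7% lower). In HK-2 shYY1 3 passed, 2 higher and 1 lower, with a background of 29.1% (14.3% higher, 14.7% lower). In HK-2 Dsh 6 passed, 3 in each direction, with a background of 49.8% (25.5% higher, 24.3% lower). In HK-2 shKDM5C none passed in edgeR with all 3 replicates, with a background of 1.32%, while 1 had an unadjusted p under 0.05 and 1 was called by DESeq2. Without replicate 1 the count was 2, MGA higher and MXD4 lower, with a background of 22.3% (11.5% higher, 10.9% lower). The shares of members called were below the background in ACHN shKDM5C and near or above it elsewhere. All 3 knockdowns of a line were compared with the same 3 control libraries.

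**Figure D2:**
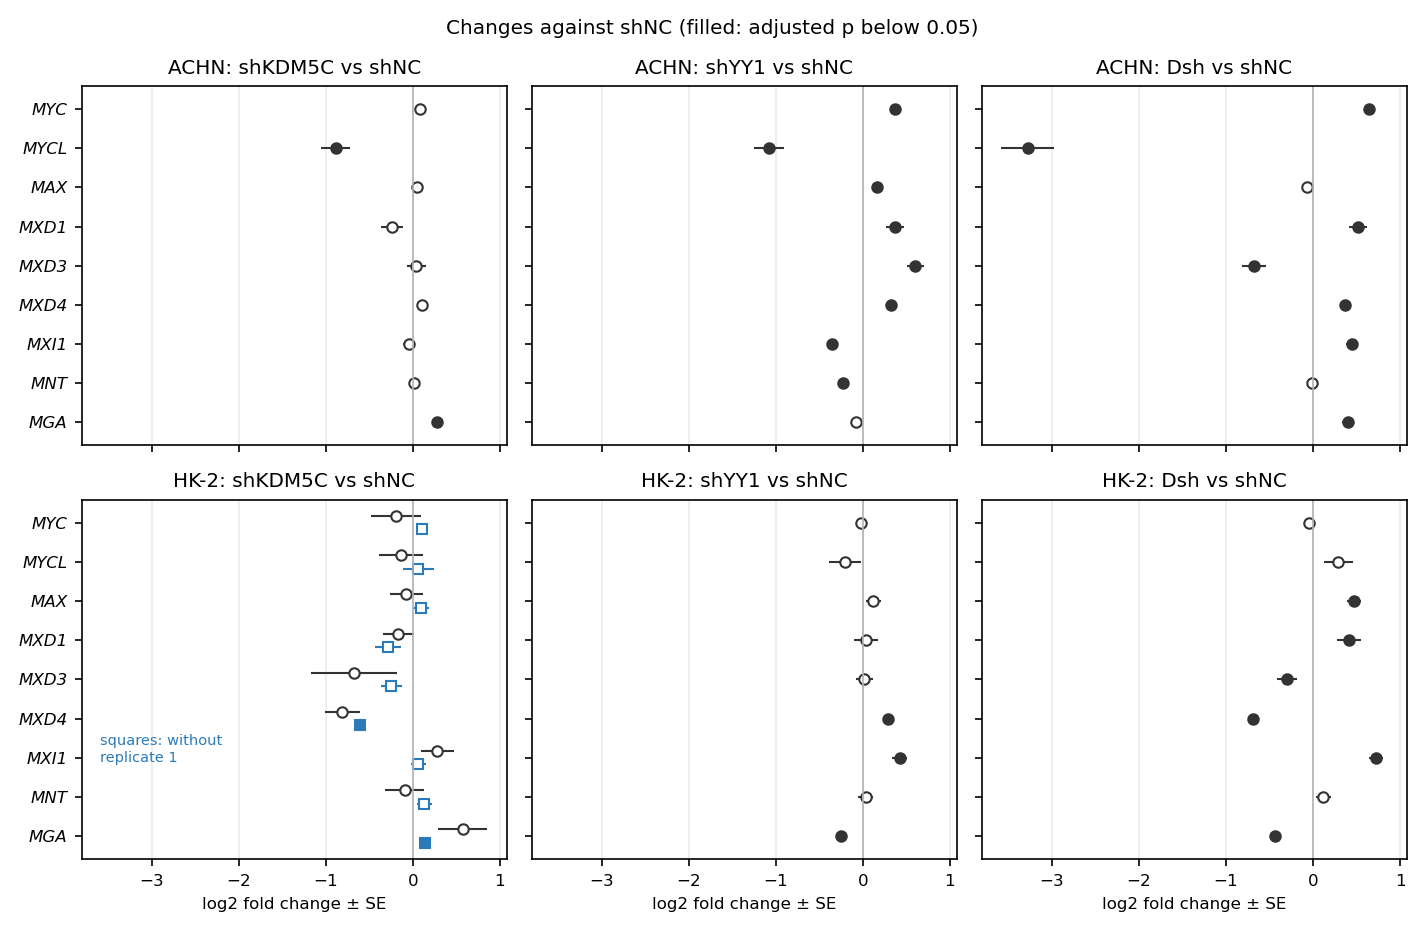
log2 fold change of each member against shNC of its own line, with the SE from edgeR's quasi-likelihood test, in 6 comparisons. Filled symbols passed an adjusted p of 0.05, and in HK-2 shKDM5C squares leave out replicate 1. MYCL in ACHN Dsh is at −3.28, and the next largest change that passed in these 6 panels is MYCL in ACHN shYY1, at −1.08.

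MYC rose in ACHN shYY1 and ACHN Dsh, and passed the test in no HK-2 comparison with shNC. MYC (ENSG00000136997, chromosome 8) was measured in ACHN at 103, 103 and 100 CPM in shNC, and at 112, 110 and 105 CPM in shKDM5C. It was at 139, 132 and 132 CPM in shYY1 and at 147, 162 and 166 CPM in Dsh. The shYY1 and Dsh libraries did not overlap with the control or with each other. The rise was 0.37 ± 0.04 (log2 ± SE, adjusted p = 8.03e-11 in edgeR) in shYY1 and 0.64 ± 0.05 (adjusted p = 2.75e-09) in Dsh. In shKDM5C the log2 change was 0.08 ± 0.04 (adjusted p = 0.0769), although all 3 libraries lay above the controls. Dsh exceeded shYY1 by 0.25 ± 0.05 and shKDM5C by 0.56 ± 0.05, both past the threshold.

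In HK-2, MYC stood at 195, 194 and 198 CPM in shNC, at 196, 192 and 189 in shYY1 and at 203, 181 and 179 in Dsh. These ranges overlapped, and the log2 changes were −0.02 ± 0.05 in shYY1 and −0.05 ± 0.05 in Dsh. In HK-2 shKDM5C MYC was at 209 and 213 CPM in replicates 2 and 3, but at 88.8 CPM in replicate 1. The log2 change was −0.19 ± 0.29 with that library and 0.11 ± 0.04 (adjusted p = 0.0840 in edgeR) without it. As these are bulk cultures, fewer cells carrying a transcript and less of it per cell cannot be told apart.

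MYCL showed the largest change of any member. MYCL (ENSG00000116990, chr1:39895426-39902256, minus strand) encodes L-MYC, the family member best known from small cell lung cancer. In ACHN shNC it was at 6.97, 5.96 and 4.73 CPM. It was at 2.95, 3.51 and 3.20 CPM in shKDM5C and at 3.13, 3.06 and 2.28 CPM in shYY1. In ACHN Dsh it was at 1.03, 0.551 and 0.284 CPM, from 20, 10 and 7 read pairs. All 9 knockdown libraries lay below all 3 controls, and the Dsh libraries below both single knockdowns. The log2 changes were −0.89 ± 0.17 (SE, adjusted p = 7.53e-05 in edgeR) in shKDM5C, −1.08 ± 0.17 (adjusted p = 3.58e-06) in shYY1 and −3.28 ± 0.30 (adjusted p = 1.93e-08) in Dsh.

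The study, with DESeq2, set its own threshold at a p under 0.05 and an absolute log2 change of 1.5. It does not say whether that p was adjusted. The rule was applied here to the unadjusted p of edgeR. By that rule MYCL in ACHN Dsh was the 1 member to pass against shNC, where 8.42% of all genes tested passed. Its log2 difference was −2.39 ± 0.34 from ACHN shKDM5C and −2.21 ± 0.36 from ACHN shYY1, past the same rule in both, where 6.68% and 9.74% of genes passed. In HK-2 MYCL ranged from 5.72 to 7.72 CPM in shNC, from 4.73 to 6.65 in shYY1 and from 6.70 to 9.11 in Dsh. Neither change against shNC passed, at −0.21 ± 0.18 and 0.29 ± 0.17, though Dsh lay above shYY1 by 0.50 ± 0.18 (adjusted p = 0.0231 in edgeR). That difference was lost in 4 of the 6 fits that left out 1 library, with adjusted p up to 0.133 (edgeR), and with all 4 groups in 1 fit (adjusted p = 0.144). HK-2 shKDM5C read 3.90 CPM in replicate 1 and 6.59 and 7.03 CPM in the others, with a log2 change of −0.14 ± 0.25, and of 0.07 ± 0.18 without replicate 1. MYCL shared 226 exon bases with MYCL-AS1 on the other strand, and the counting did not use strand.

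MYCN was all but absent. MYCN (ENSG00000134323, chr2:15940564-15947007, plus strand), the neuroblastoma oncogene, had between 0 and 4 read pairs in each of the 9 ACHN libraries outside Dsh. It had 0 in all 3 ACHN Dsh libraries, where 3 counts would correspond to between 0.124 and 0.168 CPM per library. It also had 0 in all 12 HK-2 libraries, where 3 counts would correspond to between 0.160 and 0.188 CPM. These limits cover counting error only. MYC accounted for at least 96.02% of the summed length-scaled level of MYC, MYCL and MYCN in every library.

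MAX, the shared partner of the other members, differed little in ACHN and rose in the HK-2 double knockdown. MAX (ENSG00000125952, chr14:65006174-65102695, minus strand) was at 48.6, 50.3 and 47.7 CPM in ACHN shNC and at 57.4, 54.8 and 54.3 CPM in ACHN shYY1, a rise of 0.16 ± 0.05. In ACHN Dsh it was at 48.0, 43.6 and 48.1 CPM, with a log2 change of −0.06 ± 0.06, and it lay below shYY1 by 0.24 ± 0.06. In HK-2 it was at 27.7, 29.4 and 26.8 CPM in shNC and at 37.4, 36.4 and 41.7 CPM in Dsh. These groups did not overlap, and the rise was 0.47 ± 0.08 (adjusted p = 1.26e-05 in edgeR). HK-2 shYY1 overlapped with shNC, at 27.3 to 32.2 CPM. MAX in HK-2 shKDM5C replicate 1 was at 19.0 CPM, against 30.7 and 29.3 CPM in the other libraries of that group. The log2 change from shNC was −0.07 ± 0.19 with it and 0.10 ± 0.09 without it, past the test in neither.

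Among the antagonists, MXD3 moved in opposite directions in the ACHN shYY1 and ACHN Dsh groups. MXD3 (ENSG00000213347, chr5:177301461-177312757, minus strand) is the MXD family member associated with S phase and proliferating cells. It was at 8.48, 8.70 and 8.44 CPM in ACHN shNC, and at 14.3, 12.99 and 12.3 CPM in ACHN shYY1. In ACHN Dsh it was at 4.46, 5.51 and 5.89 CPM. The 3 groups did not overlap. It rose by 0.60 ± 0.10 (adjusted p = 5.16e-06 in edgeR) in shYY1 and fell by 0.68 ± 0.14 (adjusted p = 0.000248) in Dsh. Dsh lay below shYY1 by 1.30 ± 0.13. ACHN shKDM5C, at 8.26 to 9.20 CPM, overlapped with the control.

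In HK-2, MXD3 was at 19.8, 18.6 and 19.3 CPM in shNC and at 15.2, 18.6 and 12.8 CPM in Dsh. It passed the test there with a fall of 0.30 ± 0.12 (adjusted p = 0.0361 in edgeR), but the groups overlapped. That call was lost in 5 of the 6 fits that left out 1 library, and it was not made by DESeq2. In HK-2 shKDM5C the 3 libraries read 3.29, 13.9 and 18.7 CPM, the widest ratio of highest to lowest library in any group of a tested member. The log2 change from shNC was −0.68 ± 0.50, and −0.25 ± 0.12 without replicate 1, and neither passed. Of the 5154 exon bases of MXD3, 926 overlapped RAB24 on the same strand and 1158 overlapped PRELID1 on the other, and read pairs over 2 genes are left uncounted by default, so its level is uncertain to that extent.

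MXI1 also changed sign between shYY1 and Dsh in ACHN, the other way round from MXD3. MXI1 (ENSG00000119950, chr10:110207605-110287365, plus strand) encodes a MAX partner that is a known target of hypoxia-inducible factor. It was at 30.8, 34.3 and 30.1 CPM in ACHN shNC, at 24.9, 24.6 and 26.3 CPM in shYY1 and at 44.6, 42.7 and 41.8 CPM in Dsh, with no overlap. It fell by 0.35 ± 0.06 (adjusted p = 1.80e-05 in edgeR) in shYY1 and rose by 0.44 ± 0.07 (adjusted p = 1.68e-05) in Dsh. In HK-2 it rose in both, from 31.6, 27.8 and 33.2 CPM in shNC to 39.2, 40.4 and 44.6 CPM in shYY1 and 47.0, 48.7 and 56.6 CPM in Dsh. The rises in HK-2 were 0.42 ± 0.08 and 0.73 ± 0.08, and Dsh exceeded shYY1 by 0.31 ± 0.08. With all 4 groups in 1 fit, the shYY1 rise and the excess of Dsh over shYY1 were lost (adjusted p = 0.153 and 0.192 in edgeR).

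MXD4 fell in HK-2 Dsh and rose in ACHN Dsh. MXD4 (ENSG00000123933, chr4:2247432-2262294, minus strand), a member of the family linked to differentiation and quiescence, holds the E-box shown above in its promoter window. In HK-2 it was at 112, 108 and 116 CPM in shNC and at 68.4, 67.6 and 70.5 CPM in Dsh, a fall of 0.69 ± 0.05 (adjusted p = 3.22e-12 in edgeR). In HK-2 shKDM5C it was at 42.6 CPM in replicate 1 and at 74.0 and 73.1 CPM in the others, all below the controls. The log2 change there was −0.81 ± 0.20 (adjusted p = 0.137) with replicate 1, and without it a fall of 0.61 ± 0.06 (adjusted p = 9.25e-09). HK-2 shYY1 went the other way, at 140, 131 and 139 CPM, a rise of 0.29 ± 0.05. That call was lost with all 4 groups in 1 fit (adjusted p = 0.356 in edgeR).

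In ACHN, MXD4 was at 51.4, 46.5 and 48.9 CPM in shNC. It was at 61.2, 63.2 and 62.0 CPM in shYY1 and at 59.9, 61.1 and 68.0 CPM in Dsh. Both groups lay above the control without overlap, with rises of 0.32 ± 0.05 and 0.37 ± 0.06, and they did not differ from each other beyond the test (0.03 ± 0.06). ACHN shKDM5C, at 48.6 to 57.8 CPM, overlapped with the control. Of the summed length-scaled level of MXD1, MXD3, MXD4, MXI1 and MNT, MXD4 made up 50.5% ± 0.60 (SD, n = 3) in HK-2 shNC and 32.9% ± 1.1 in HK-2 Dsh.

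MXD1 rose in the double knockdown of both lines. MXD1 (ENSG00000059728, chr2:69897688-69942945, plus strand), the classical MAD1 protein induced on differentiation, was at 8.94, 8.65 and 8.71 CPM in ACHN shNC. It was at 10.7, 11.7 and 12.2 CPM in ACHN shYY1 and at 12.2, 12.6 and 12.6 CPM in Dsh, all above the control, with rises of 0.37 ± 0.10 and 0.51 ± 0.10. ACHN shKDM5C, at 6.55 to 8.90 CPM, overlapped with the control. In HK-2 it was at 9.59, 10.3 and 10.6 CPM in shNC and at 11.5, 12.7 and 16.1 CPM in Dsh, a rise of 0.41 ± 0.14 (adjusted p = 0.0117 in edgeR). The HK-2 call was lost without Dsh replicate 3, at 0.27 (adjusted p = 0.129 in edgeR), and with all 4 groups in 1 fit (adjusted p = 0.112). MXD1 shared 237 exon bases with SNRNP27.

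MNT passed the test against shNC in 1 group, ACHN shYY1. MNT (ENSG00000070444, chr17:2384060-2401118, minus strand), the broadly expressed antagonist whose window holds both motifs, was at 34.9, 36.4 and 36.1 CPM in ACHN shNC and at 31.7, 31.1 and 30.2 CPM in ACHN shYY1. These did not overlap, and the fall was 0.23 ± 0.06 (adjusted p = 0.000968 in edgeR). In ACHN shKDM5C and Dsh it ranged from 34.5 to 37.8 CPM and overlapped with the control. In HK-2 no change against shNC passed, and the groups overlapped at 29.2 to 35.8 CPM except for shKDM5C replicate 1, at 18.01 CPM. The log2 change in HK-2 shKDM5C was −0.09 ± 0.23 with that library and 0.13 ± 0.08 without it. MNT shared 1065 exon bases with the unnamed gene ENSG00000262456 on the other strand.

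MGA rose in ACHN wherever KDM5C was depleted and fell in HK-2 wherever YY1 was depleted. MGA (ENSG00000174197, chr15:41621224-41773081, plus strand) was at 73.5, 70.2 and 68.8 CPM in ACHN shNC. It was at 80.3, 87.2 and 93.6 CPM in shKDM5C and at 83.5, 108 and 90.0 CPM in Dsh, without overlap with the control. The rises were 0.28 ± 0.05 and 0.40 ± 0.07, and Dsh did not differ from shKDM5C beyond the test (0.12 ± 0.08). ACHN shYY1 overlapped with shNC, at 66.2 to 69.5 CPM.

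In HK-2 MGA was at 165, 169 and 173 CPM in shNC, at 154, 138 and 134 CPM in shYY1 and at 121, 127 and 125 CPM in Dsh. It fell by 0.25 ± 0.05 (adjusted p = 0.00140 in edgeR) in shYY1 and by 0.43 ± 0.05 (adjusted p = 4.54e-09) in Dsh, and the 3 groups did not overlap. Both calls were lost with all 4 groups in 1 fit (adjusted p = 0.616 and 0.167 in edgeR). HK-2 shKDM5C lay above the control, at 366 CPM in replicate 1 and 185 and 189 CPM in the others. The log2 change was 0.57 ± 0.28 (adjusted p = 0.378) with replicate 1 and 0.14 ± 0.05 (adjusted p = 0.0268) without it. MGA shared 510 of its 17651 exon bases with an unnamed gene on the other strand.

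Counted against the single knockdowns, 6 members differed in ACHN Dsh from ACHN shKDM5C, 4 higher and 2 lower, where 62.5% of all genes did (31.6% higher, 30.9% lower). From ACHN shYY1, 7 members differed, 4 higher and 3 lower, with a background of 64.6% (32% higher, 32.7% lower). From HK-2 shYY1, 7 differed, 4 higher and 3 lower, with a background of 47.7% (24.8% higher, 22.9% lower). That count was not stable, as DESeq2 called 5 and the edgeR fits that left out 1 library called 4 to 5. From HK-2 shKDM5C none was called by edgeR with all replicates, with a background of 11.9%, while 3 had an unadjusted p under 0.05 and DESeq2 called 1. Without replicate 1 it was 5, 3 higher and 2 lower, with a background of 43.3% (22.2% higher, 21% lower). The 5 were MXD1, MXI1 and MAX, higher in Dsh by 0.69, 0.66 and 0.37, and MGA and MYC, lower by 0.58 and 0.16. With replicate 1 the log2 differences of these 5 were 0.58, 0.44, 0.54, −1.01 and 0.14.

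The interaction term asked whether the double knockdown differed from the sum of the single ones on the log2 scale. In ACHN 5 members passed, 2 higher and 3 lower than the sum, where 55.6% of all genes passed (26.8% higher, 28.8% lower). MXD3 was lower than the sum by 1.35 ± 0.16 (adjusted p = 1.16e-07 in edgeR), since its single changes summed to 0.64 and its double change was −0.68. MYCL was lower by 1.34 ± 0.38 (adjusted p = 0.00405), with a sum of −1.97 and a double change of −3.28. MAX was lower by 0.30 ± 0.08. MXI1 was higher than the sum by 0.82 ± 0.09 (adjusted p = 4.34e-08 in edgeR), with a sum of −0.40 and a double change of 0.44. MYC was higher by 0.16 ± 0.06 (adjusted p = 0.0373), a call lost in 8 of the 12 fits that left out 1 library. YY1 itself was higher than its own sum in ACHN by 0.28 ± 0.07 and KDM5C lower by 0.42 ± 0.07, and the part of this in the members' interactions was not tested.

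In HK-2 no member passed the interaction test in edgeR with all replicates, with a background of 9.61%, while 2 had an unadjusted p under 0.05 and DESeq2 called 0. Without shKDM5C replicate 1, 3 passed, with a background of 28.7% (15% higher, 13.7% lower). MXD1 was higher than the sum by 0.66 ± 0.22, and MXD4 and MGA were lower by 0.36 ± 0.08 and 0.32 ± 0.08. With it the terms were 0.54 ± 0.25, −0.17 ± 0.22 and −0.76 ± 0.30. KDM5C itself was lower than its own sum without that library, at −0.32 ± 0.08, and was at −0.10 ± 0.24 with it.

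**Figure D3:**
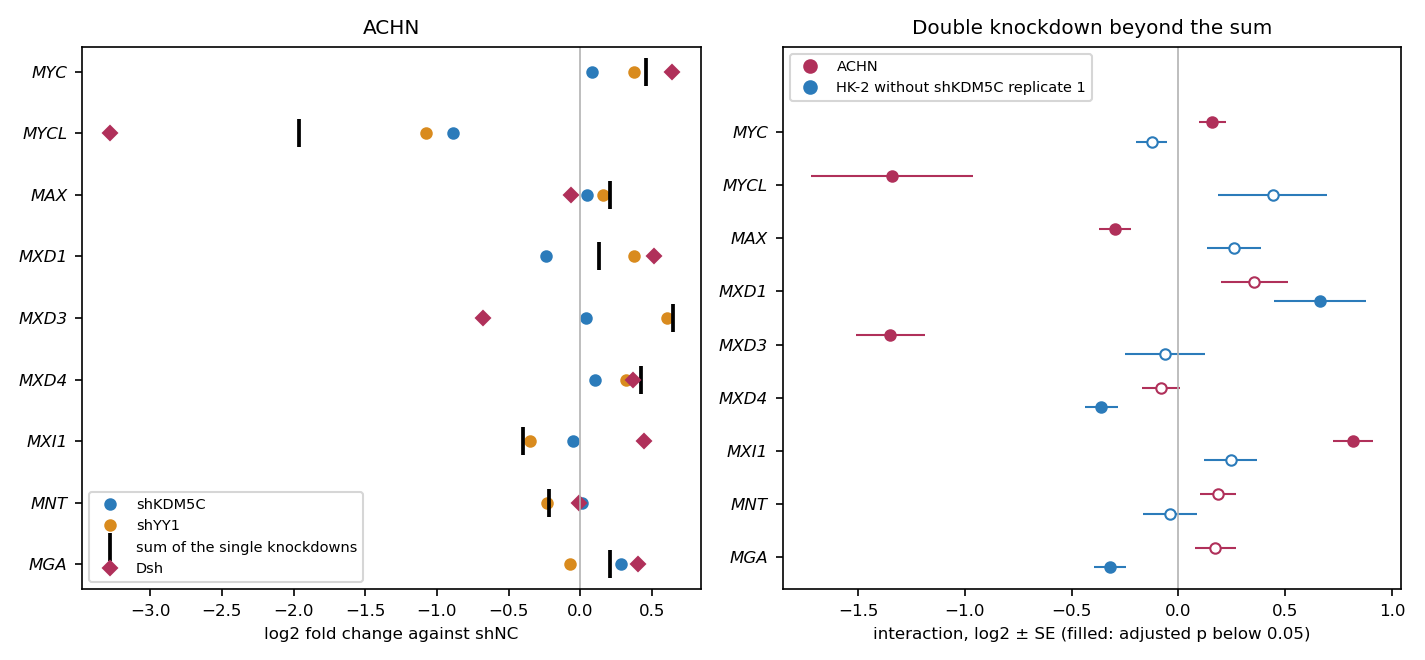
Left, log2 changes against shNC in ACHN for each knockdown, with a bar at the sum of the single knockdowns. Right, the interaction term with its SE in ACHN (12 libraries) and in HK-2 without shKDM5C replicate 1, filled where the adjusted p was under 0.05. In ACHN the Dsh value lies left of the sum for MYCL and MXD3, by 1.34 and 1.35, and right of it for MXI1, by 0.82.

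The same knockdown had different effects on several members in the 2 lines. For Dsh, 5 members differed between ACHN and HK-2, where 46% of all genes did: MYCL by −3.55 ± 0.35 (ACHN minus HK-2, log2 ± SE), MAX by −0.52 ± 0.10, MYC by 0.71 ± 0.07, MGA by 0.86 ± 0.09 and MXD4 by 1.08 ± 0.08. MYCL was again past the study's fold rule, as were 10.1% of all genes. For shYY1, 5 differed with a background of 33.1%: MYCL by −0.86 ± 0.26, MXI1 by −0.76 ± 0.11, MGA by 0.19 ± 0.07, MYC by 0.41 ± 0.06 and MXD3 by 0.60 ± 0.14. For shKDM5C, MXD4 was the 1 member called, by 0.93 ± 0.23 (adjusted p = 0.0234 in edgeR), with a background of 11.9%. The call was lost in 7 of the 12 fits that left out 1 library, with adjusted p up to 0.0685 (edgeR), and with the replicate number as a block (0.96, adjusted p = 0.055). Without HK-2 replicate 1 it was 2 with a background of 33.9%, MXD4 at 0.72 ± 0.08 and MYCL at −0.94 ± 0.25, the latter at −0.74 ± 0.32 with it. The depletion of each target also differed between the lines: KDM5C was less depleted in ACHN by 1.02 in shKDM5C (0.79 without HK-2 replicate 1) and by 0.71 in Dsh, and YY1 by 0.84 in shYY1 and by 0.99 in Dsh. Their part in the differences was not tested.

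The balance of MYC family to antagonist transcripts was taken as a ratio of summed levels in CPM per kilobase, and is given as a description without a test. MYC, MYCL and MYCN together stood at 1.68 ± 0.015 (SD, n = 3) times the sum of MXD1, MXD3, MXD4, MXI1 and MNT in ACHN shNC. The ratio was 1.74 ± 0.17 in ACHN shKDM5C, 2.04 ± 0.06 in shYY1 and 2.09 ± 0.10 in Dsh, and the last 2 groups lay above the control libraries. In HK-2 it was 2.12 ± 0.07 in shNC, 1.75 ± 0.05 in shYY1 and 2.17 ± 0.24 in Dsh, with all 3 shYY1 libraries below the controls and Dsh overlapping with them. HK-2 shKDM5C held the lowest and the highest single library, 1.49 in replicate 1 and 2.81 in another. Set against MAX, the MYC family ratio was 3.19 ± 0.07 in ACHN shNC and 5.04 ± 0.48 in ACHN Dsh, and 10.5 ± 0.59 in HK-2 shNC and 7.42 ± 0.88 in HK-2 Dsh. The ratio to MAX was thus higher in Dsh than in the control in ACHN and lower in HK-2, with no overlap in either line.

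**Figure D4:**
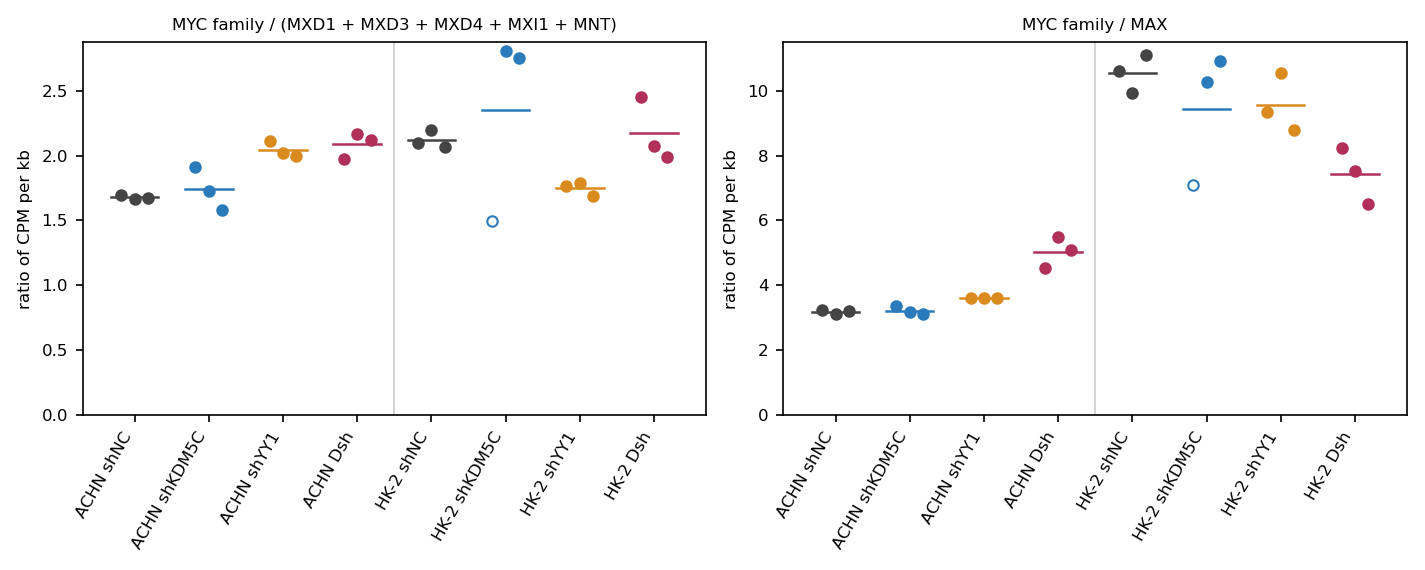
Ratio of the summed MYC family level to the summed level of the antagonists (left) and to MAX (right) in each library, from CPM per kilobase of exon. Points are libraries, bars are group means and the open circle is HK-2 shKDM5C replicate 1. On the right, ACHN Dsh lies at 4.54 to 5.49 against 3.12 to 3.25 in its control, and HK-2 Dsh at 6.49 to 8.24 against 9.92 to 11.1.

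The genes whose pattern was most like that of MYC were LFNG, GPAA1 and TIGD5, among 10085 genes of at least 10 CPM. Over the 24 libraries, which share lines, groups and depth, and with each line centred on its own mean log2 CPM, the correlations with MYC were 0.946, 0.943 and 0.941. LFNG, a glycosyltransferase of the Notch pathway, lies on chromosome 7, and GPAA1, of GPI anchor attachment, and TIGD5 lie on chromosome 8 as MYC does. Without HK-2 shKDM5C replicate 1 the values were 0.885, 0.890 and 0.860, and the genes ranked 20, 14 and 43, so their place at the top rested on that library.

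Known targets of MYC moved in both directions. The lists that follow were compiled from general knowledge with earlier results of these data in view, and their counts stand beside those of all genes. Of 34 MYC-induced targets, 10 rose and 15 fell in ACHN Dsh, or 29.4% and 44.1%, against 30.7% and 32% of all genes. SRM, spermidine synthase, rose by 1.53 ± 0.05 (log2 ± SE), the transferrin receptor TFRC by 0.97 ± 0.05 and the nucleoside kinase NME1 by 0.81 ± 0.08. The amino acid transporter SLC7A5 fell by 1.82 ± 0.04, DNPH1 by 1.06 ± 0.11 and lactate dehydrogenase LDHA by 0.75 ± 0.05. In ACHN shKDM5C, where MYC did not pass the test, 25 of the 34 rose and 3 fell, 73.5% higher against 28.9% of all genes. In ACHN shYY1 9 rose and 6 fell, or 26.5% and 17.6%, against 24.2% and 24.5% of all genes.

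In HK-2, where MYC did not pass in any comparison with shNC, 23 of the 34 targets fell in Dsh and 5 rose, 67.6% lower against 24.3% of all genes, with a list median of −0.28. POLR1B, a subunit of RNA polymerase I, fell by 0.86 ± 0.09, and the purine and pyrimidine enzymes PAICS and CAD fell by 0.70 ± 0.04 and 0.64 ± 0.05. SLC7A5, SHMT2 of the mitochondrial folate pathway and TFRC rose, by 1.10 ± 0.05, 0.66 ± 0.05 and 0.43 ± 0.04. In HK-2 shYY1 the split was the other way, with 19 higher and 1 lower, 55.9% higher against 14.3% of all genes. In HK-2 shKDM5C edgeR called none, 2 had an unadjusted p under 0.05 and DESeq2 called 0, and without replicate 1 it was 3 in each direction, where 11.5% of all genes were higher and 10.9% lower.

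Of 8 MYC-repressed targets, 3 rose and 3 fell in each double knockdown, or 37.5% each way, against 30.7% and 32% of all genes in ACHN Dsh and 25.5% and 24.3% in HK-2 Dsh. The cell-cycle inhibitor CDKN1A rose by 2.25 ± 0.05 in ACHN Dsh and by 1.56 ± 0.06 in HK-2 Dsh, and the growth-arrest gene GADD45A by 1.22 ± 0.05 and 2.08 ± 0.09. NDRG1 fell by 2.26 ± 0.07 in ACHN Dsh and rose by 1.10 ± 0.05 in HK-2 Dsh. GADD45B rose in ACHN by 0.40 ± 0.06 and fell in HK-2 by 0.32 ± 0.10. CDKN1B, which encodes p27, fell by 0.55 ± 0.05 in ACHN, and CDKN1C, which encodes p57, by 0.41 ± 0.12 in HK-2. In HK-2 shKDM5C none was called, with 3 at an unadjusted p under 0.05 and 0 by DESeq2, and without replicate 1 edgeR called 1 higher and 4 lower, beside 11.5% and 10.9% of all genes.

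**Figure D5:**
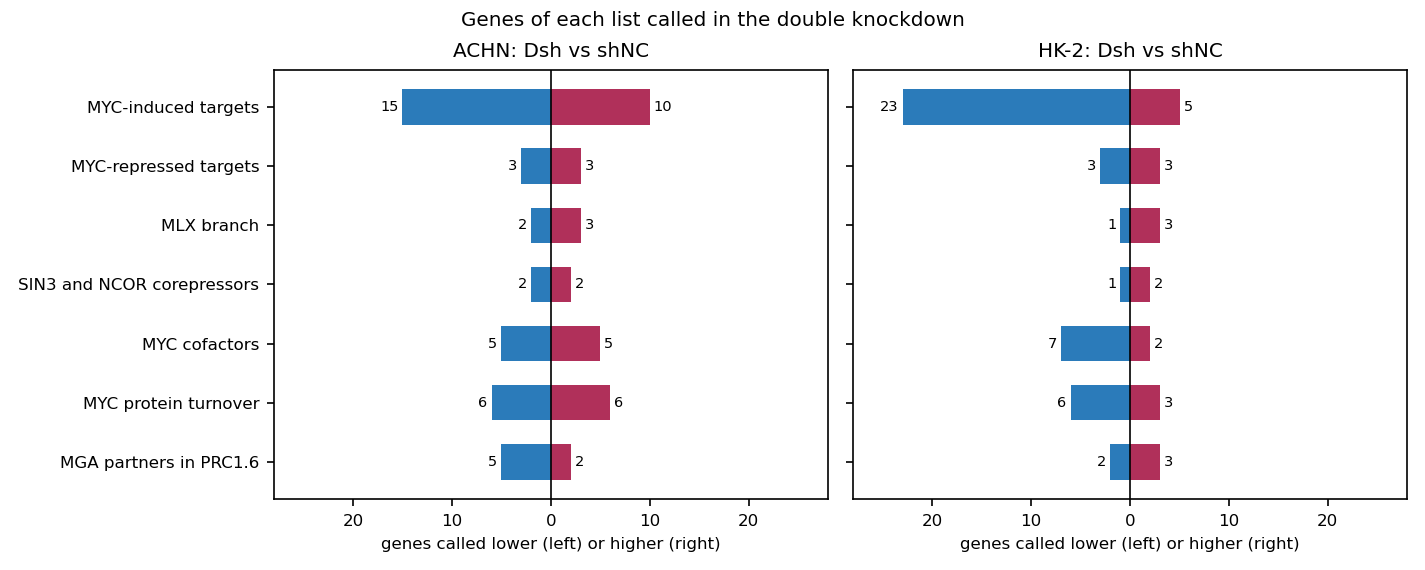
Number of genes of each list called lower (left of 0) or higher (right) at an adjusted p under 0.05 in the double knockdown of each line, against shNC. MYC-induced targets split 15 lower to 10 higher in ACHN and 23 lower to 5 higher in HK-2, of 34 tested in both.

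The parallel MLX branch of the network, whose glucose-sensing factors drive TXNIP and ARRDC4, moved in both directions in each double knockdown. In ACHN Dsh 3 of its 5 genes rose and 2 fell, or 60% and 40% against 30.7% and 32% of all genes. TXNIP, which restrains glucose uptake, rose by 0.84 ± 0.05, ARRDC4 by 0.99 ± 0.13 and MLXIP by 0.31 ± 0.04, while MLX fell by 0.33 ± 0.07 and MLXIPL, named after its values were seen, went from 4.54 ± 0.15 to 0.246 ± 0.14 CPM (SD, n = 3). In each ACHN single knockdown 4 of the 5 fell, with 0 higher in shKDM5C and 1 in shYY1. That was 80% lower in each, against 27.7% and 24.5% of all genes. TXNIP, ARRDC4 and MLXIP fell by 1.79, 1.30 and 0.21 in ACHN shKDM5C and by 0.54, 1.18 and 0.11 in ACHN shYY1. In HK-2 Dsh 3 of the 4 tested rose and 1 fell, or 75% and 25% against 25.5% and 24.3% of all genes. TXNIP rose there by 1.42 ± 0.05, MLX by 0.28 ± 0.10 and ARRDC4, also named after its values were seen, by 0.51 ± 0.18, and MLXIP fell by 0.46 ± 0.04.

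The corepressors recruited by the MXD proteins split between the directions, with 2 of 7 higher and 2 lower in ACHN Dsh and 2 higher and 1 lower in HK-2 Dsh. That was 28.6% each way in ACHN, near the 30.7% and 32% of all genes, and 28.6% and 14.3% in HK-2 against 25.5% and 24.3%. SIN3B rose in both, by 0.39 ± 0.05 in ACHN and 0.55 ± 0.06 in HK-2. NCOR1 rose in ACHN by 0.40 ± 0.05 and HDAC1 in HK-2 by 0.34 ± 0.05. SAP18 and HDAC2 fell in ACHN by 0.84 ± 0.07 and 0.24 ± 0.05, and SIN3A fell in HK-2 by 0.34 ± 0.06.

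Of 12 MYC cofactors, 5 rose and 5 fell in ACHN Dsh, and 2 rose and 7 fell in HK-2 Dsh. The shares were 41.7% each way in ACHN, against 30.7% and 32% of all genes, and 16.7% higher and 58.3% lower in HK-2, against 25.5% and 24.3%. The acetyltransferases KAT2A and EP300 and the remodeller EP400 rose in ACHN by 0.66 ± 0.06, 0.48 ± 0.05 and 0.39 ± 0.04. ACTL6A, WDR5 and KAT5 fell there by 0.55 ± 0.06, 0.43 ± 0.06 and 0.32 ± 0.10. In HK-2, KAT5 and its scaffold TRRAP fell by 0.75 ± 0.11 and 0.57 ± 0.04 and WDR5 by 0.27 ± 0.05. EP400 and ZBTB17, which encodes MIZ1, rose there by 0.32 ± 0.05 and 0.26 ± 0.09. In ACHN shKDM5C 7 of the 12 cofactors rose and 0 fell, 58.3% higher against 28.9% of all genes.

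Among 13 genes of MYC protein turnover, 6 rose and 6 fell in ACHN Dsh, and 3 rose and 6 fell in HK-2 Dsh. These were 46.2% each way in ACHN, where all genes gave 30.7% and 32%, and 23.1% higher and 46.2% lower in HK-2, where all genes gave 25.5% and 24.3%. FBXW7, the ubiquitin ligase subunit that targets MYC for degradation, rose in both, by 0.78 ± 0.07 in ACHN and 0.73 ± 0.08 in HK-2. The deubiquitinase USP36 also rose in both, by 0.43 ± 0.05 and 0.32 ± 0.06, as did the ligase HUWE1 in ACHN by 0.42 ± 0.05 and PPP2R5A in HK-2 by 0.22 ± 0.06. CIP2A and USP28 fell in ACHN by 0.38 ± 0.07 and 0.30 ± 0.07. USP22, AURKA and PLK1 fell in HK-2 by 0.43 ± 0.04, 0.35 ± 0.05 and 0.24 ± 0.05. In ACHN shKDM5C 10 of the 13 rose and 1 fell, or 76.9% and 7.69%, against 28.9% and 27.7% of all genes.

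Of 9 partners of MGA in PRC1.6, 2 rose and 5 fell in ACHN Dsh, and 3 rose and 2 fell in HK-2 Dsh. Their shares higher and lower were 22.2% and 55.6% in ACHN (30.7% and 32% of all genes) and 33.3% and 22.2% in HK-2 (25.5% and 24.3%). RING1, a core ubiquitin ligase of the complex, fell by 1.23 ± 0.07 in ACHN and by 0.21 ± 0.09 in HK-2, and CBX3 by 0.39 ± 0.05 and 0.11 ± 0.05. L3MBTL2 rose in both, by 0.82 ± 0.09 and 0.26 ± 0.08. RYBP fell in ACHN by 0.29 ± 0.06 and rose in HK-2 by 0.44 ± 0.07, E2F6 rose in ACHN by 0.27 ± 0.07 and RNF2 in HK-2 by 0.39 ± 0.08. Of 14 germline genes that PRC1.6 is known to silence, only 4 in ACHN Dsh and 3 in HK-2 Dsh had enough counts to test, and 1 rose in each, which is 25% of those tested in ACHN against 30.7% of all genes and 33.3% in HK-2 against 25.5%. That gene was CPEB1 in both lines, from 18.2 ± 1.9 to 36.8 ± 2.5 CPM (SD, n = 3) in HK-2, a rise of 1.03 ± 0.09. In ACHN, where it was named after its values were seen, it went from 4.57 ± 0.23 to 7.19 ± 0.89 CPM, a rise of 0.66 ± 0.15.

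Of 5 noncoding neighbours of MYC and MYCN in the files, PVT1, the long RNA gene beside MYC, was the 1 with enough counts to test. In ACHN it rose in shYY1 by 0.46 ± 0.06 and had a log2 change of 0.07 ± 0.08 in Dsh, where MYC was highest. In HK-2 it rose in Dsh by 0.44 ± 0.10, from 17.1 ± 0.77 to 23.0 ± 0.47 CPM (SD, n = 3), while MYC did not pass.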

How the data were processed

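Libraries were made with a NEBNext Ultra kit from TRIzol RNA and sequenced as pairs. The authors aligned reads to hg38 with HISAT2 2.0.5 and deposited raw counts per gene for each library. The submitters' notes name featureCounts 1.5.0-p3 and the file headers version 2.0.1, with Ensembl release 84 and no strand option. The authors' own tests used DESeq2. Raw counts were tested here with edgeR 4.0.16 (R 4.3.3): quasi-likelihood fits on the libraries of each comparison, TMM scaling, filterByExpr and Benjamini-Hochberg adjustment over all genes tested, called at an adjusted p under 0.05. SEs are the log2 change divided by the square root of F. CPM used TMM factors over all 24 libraries. CPM per kilobase used the exon length in the files, which sums all isoforms.

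Groups and replicate numbers came from the sample labels. The 10 members and the other lists were chosen with earlier results of these data known. Beyond the members, KDM5C and YY1, up to 3 genes per direction were named from each list in each double knockdown, by absolute log2 change among called genes whose higher group averaged 10 CPM or more. Of the listed genes, CCAT1 was unmatched. For 1 gene that this rule named, the value is not reported here. No 2 libraries agreed within sampling noise (chi-square per gene of at least 2.10). On simulated counts for ACHN Dsh against shNC (16454 genes, 200 changed), 100% of changes of 1 on the log2 scale were recovered and 5.21% of calls were unchanged genes. Recovery was 99% for HK-2 Dsh and 96% for the Dsh difference between lines. Far fewer genes were changed than the 62.6% called in ACHN Dsh. They were drawn only from genes above a set level, so recovery at levels as low as MYCL in ACHN Dsh was not measured. Alternatives were DESeq2 1.42.0, other scalings and filters, all 4 groups of a line in 1 fit, a replicate block and leaving out each library. List counts in HK-2 shKDM5C without replicate 1 were added after seeing the data. Promoter windows were from RefSeq (GRCh38.p14).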

Additional observations from a re-analysis of the deposited data

Results flagged for a closer look

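The 11 effects below differed between the 2 lines by the interaction test of edgeR across all genes, each given as the log2 change in ACHN minus that in HK-2. For the YY1 knockdown they were MYC at 0.41, MYCL at −0.86, MXD3 at 0.60, MXI1 at −0.76 and MGA at 0.19. The MGA difference was lost in 7 of the 12 fits that left out 1 library, with adjusted p up to 0.108 (edgeR), and without a filter on low counts (0.18, adjusted p = 0.0809 in edgeR). The MYCL difference was lost in 1 of 12, without ACHN shNC replicate 1 (−0.72, adjusted p = 0.0520 in edgeR).

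For the double knockdown they were MYC at 0.71, MYCL at −3.55, MAX at −0.52, MXD4 at 1.08 and MGA at 0.86. No fit that left out 1 library lost any of these 5. For the KDM5C knockdown it was MXD4 at 0.93, which rested on HK-2 libraries that include the replicate 1 that stands apart. Of the 12 fits that left out 1 library, 7 lost it, with adjusted p from 3.83e-08 to 0.0685 (edgeR), and without that library the difference was 0.72 at the lower of these. All groups held 3 libraries, too few to test 1 library against the rest of its group.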

How the results depend on the processing

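Counts of members called moved by over 1.5 times under these settings. With all 4 groups of a line in 1 fit, the count was 1 in HK-2 shKDM5C, 0 in HK-2 shYY1, 3 in HK-2 Dsh, 4 in HK-2 Dsh against shKDM5C and 1 in HK-2 Dsh against shYY1, and the cause was not tested. DESeq2 and no filter on low counts each gave 1 in HK-2 shKDM5C and 1 in HK-2 Dsh against shKDM5C. No filter gave 1 for the HK-2 interaction. Total counts without TMM gave 1 in HK-2 Dsh against shKDM5C and 8 for the ACHN interaction. RLE size factors and a floor of 10 counts per library moved no count past that limit. Same-numbered samples correlated over 0.1 throughout in no pair of groups, and the main fits did not pair samples by number. With 3 libraries per group, such a cutoff cannot show that the samples are unpaired. With the replicate block the count for the shKDM5C difference between lines went from 1 to 0 and the other counts stayed within 1.5 times.

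Leaving out each library in turn gave ranges of 2 to 4 members in ACHN shKDM5C, 8 in ACHN shYY1, 7 in ACHN Dsh, 0 to 2 in HK-2 shKDM5C, 3 in HK-2 shYY1 and 4 to 6 in HK-2 Dsh. Against the single knockdowns they were 6 to 7 and 6 to 7 in ACHN Dsh (shKDM5C, shYY1), and 0 to 5 and 4 to 5 in HK-2 Dsh. They were 6 between the controls, 4 to 6 for the ACHN interaction, 0 to 3 for the HK-2 interaction, and 0 to 2, 4 to 5 and 5 to 6 for the line differences of shKDM5C, shYY1 and Dsh. The high ends in HK-2 shKDM5C, HK-2 Dsh against shKDM5C and the HK-2 interaction came without HK-2 shKDM5C replicate 1. For HK-2 Dsh against shYY1 the high end of 5 lay below the 7 called with all libraries.

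The signs that turned belonged to changes that had not passed in the main fits. Once turned, MYC in HK-2 Dsh against shKDM5C did pass without shKDM5C replicate 1 (−0.16, adjusted p = 0.0227 in edgeR). Under total counts without TMM they were MNT at −0.033 and MXD3 at −0.0056 in ACHN shKDM5C, MNT at 0.0018 in ACHN Dsh, MNT at −0.0043 and MXD3 at −0.021 in HK-2 shYY1, MNT at 0.035 in ACHN Dsh against shKDM5C, MXI1 at −0.012 between the controls and MXD4 at 0.015 in the ACHN interaction. Leaving out 1 library turned the following, with their log2 ranges. In HK-2 shKDM5C they were MYC (−0.37 to 0.11), MYCL (−0.28 to 0.065), MAX (−0.19 to 0.098) and MNT (−0.23 to 0.13). In HK-2 Dsh against shKDM5C they were MYC (−0.16 to 0.33), MXD3 (−0.058 to 0.84), MXD4 (−0.085 to 0.24) and MNT (−0.018 to 0.35). In the HK-2 interaction they were MYC (−0.12 to 0.35), MXD3 (−0.064 to 0.81), MXI1 (−0.082 to 0.25) and MNT (−0.040 to 0.31). In the shKDM5C line difference they were MYC (−0.019 to 0.48), MAX (−0.044 to 0.26), MXD1 (−0.20 to 0.049), MNT (−0.11 to 0.26) and MGA (−0.44 to 0.15). In HK-2 shYY1 they were MXD1 (−0.086 to 0.13), MXD3 (−0.036 to 0.048) and MNT (−0.044 to 0.073). In ACHN shKDM5C they were MXI1 (−0.082 to 0.010) and MNT (−0.017 to 0.041). Between the controls they were MYCL (−0.26 to 0.014) and MXI1 (−0.032 to 0.095). The others were MAX in the shYY1 line difference (−0.014 to 0.098), MYC in HK-2 Dsh against shYY1 (−0.085 to 0.011), MXD4 in ACHN Dsh against shYY1 (−0.026 to 0.069), and MNT in ACHN Dsh (−0.041 to 0.020) and in ACHN Dsh against shKDM5C (−0.063 to 0.0020). MYCL in ACHN Dsh rested on 37 read pairs in all, which limits the precision of its change.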
